A study of Mus musculus with 8 samples.

Results

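The neutrophil granule and surface genes were chosen as probes whose gene symbol in the deposited table was 1 of 10 listed members: S100a8, S100a9, Elane, Mpo, Camp, Ltf, Ngp, Csf3r, Retnlg and Ly6g. Of these symbols, 9 were found, on 11 probes of 39341, and they stood for 9 of 25734 named genes. S100a8 and S100a9 had 2 probes each. Ly6g is not analysed here, because no row carried that symbol. All 11 probes were measured on all 8 arrays.

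The lungs were 4 samples of TGFb1-Tg mice and 4 samples of wild-type (WT) mice of the B6J background, all 10 weeks old per the labels. TGFb1-Tg mice carry an inducible human TGF-β1 transgene that doxycycline, given at 1 mg/ml in the drinking water, switches on, and the promoter that drives it is not given in the sources used here. Each array carried one lung in Cy5 and a pooled lung RNA in Cy3, so every probe has an intensity for the lung, an intensity for the pool and a ratio of lung to pool. The labels name one wild-type pool for all arrays. The file headers instead pair TGFb1-Tg arrays with pooled RNA of 4 water-treated transgenic lungs, and WT arrays with pooled RNA of 4 water-treated wild-type lungs. Those headers do not say whether the wild-type pool was made of the same 4 lungs as the WT samples. The headers also give 14 days of treatment, with doxycycline for the TGFb1-Tg lungs and water for the WT lungs, whereas the labels give harvests from 2 to 14 days and no day per sample. If the headers are right, doxycycline and the induced transgene cannot be told apart. Nothing in the sources says more of the replicates than that they are separate samples, so the p-values measure the spread between these samples.

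Tgfb1, probed by the mouse sequence on the array, had lung intensities of 1.45, 1.7, 1.32 and 1.41 in TGFb1-Tg lungs and of 0.61, 0.64, 0.76 and 0.62 in WT lungs. Its ratio to the pool was 2.04-fold higher in TGFb1-Tg lungs, with a log2 difference of 1.03 ± 0.08 (SE, n = 4 each). Between 39039 and 39281 probes were measured per array. The SD of the log2 ratios over all probes of an array was 0.39 to 0.41 on TGFb1-Tg arrays and 0.13 to 0.16 on WT arrays. Of the lung cell markers looked for, Foxj1 and Cldn5 were measured on all 8 arrays. Sftpc had a value on 1 TGFb1-Tg array and Scgb1a1 on 3, and neither had one in WT lungs. Sftpb, Sftpa1 and Ager gave no values. Cldn5, an endothelial junction gene, had intensities of 13.4 to 15.6 in TGFb1-Tg lungs and of 18.5 to 23.6 in WT lungs, and Foxj1, a ciliated cell gene, had 1.63 to 2.09 in TGFb1-Tg lungs and 2.56 to 3.22 in WT lungs.

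Neutrophils are short-lived white blood cells that mature in the bone marrow, and the lung vessels hold a large reserve of them. They load their granules in waves: myeloperoxidase and elastase are made first, in promyelocytes, lactoferrin and cathelicidin later, in myelocytes, and S100A8 and S100A9 fill the cytosol of the mature cell. Granule transcripts are therefore largely markers of marrow precursors, whereas circulating and tissue neutrophils keep transcripts of S100a8, S100a9, Csf3r and Retnlg. In whole lung RNA, fewer cells of a type and less RNA per cell cannot be told apart.

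Promoter sequences are shown for S100a8 and S100a9, which lie close on a chromosome and had similar ratios, and for Ltf and Retnlg, whose differences were called with and without the pool. They are the 250 bases before the RefSeq transcription start (GRCm38.p6), read 5′ to 3′ on the gene's own strand. S100a8 is shown at chr3:90668821-90669070 on the plus strand, S100a9 at chr3:90695722-90695971 on the minus strand, Ltf at chr9:111019042-111019291 on the plus strand and Retnlg at chr16:48872358-48872607 on the plus strand. Capitals mark matches to either of 2 patterns, searched on both strands. One is TTGCNNAA, or TTNNGCAA on the other strand, which resembles the element bound by C/EBP factors. The other is GAGGAA, or TTCCTC on the other strand, which resembles the element bound by ETS factors such as PU.1.
S100a8: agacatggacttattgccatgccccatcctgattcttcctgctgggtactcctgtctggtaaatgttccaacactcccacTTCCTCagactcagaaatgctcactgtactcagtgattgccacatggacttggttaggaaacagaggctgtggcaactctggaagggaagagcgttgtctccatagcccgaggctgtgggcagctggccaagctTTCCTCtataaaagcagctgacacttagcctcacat
S100a9: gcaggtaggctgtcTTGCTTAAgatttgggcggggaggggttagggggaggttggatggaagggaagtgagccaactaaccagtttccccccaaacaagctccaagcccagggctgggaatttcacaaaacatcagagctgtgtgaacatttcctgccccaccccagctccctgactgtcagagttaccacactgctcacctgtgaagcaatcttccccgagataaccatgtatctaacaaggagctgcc
Ltf: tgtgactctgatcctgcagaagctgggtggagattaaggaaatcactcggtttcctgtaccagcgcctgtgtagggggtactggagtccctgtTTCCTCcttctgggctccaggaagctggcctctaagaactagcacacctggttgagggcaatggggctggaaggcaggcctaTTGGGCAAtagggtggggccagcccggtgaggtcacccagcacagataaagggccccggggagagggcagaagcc
Retnlg: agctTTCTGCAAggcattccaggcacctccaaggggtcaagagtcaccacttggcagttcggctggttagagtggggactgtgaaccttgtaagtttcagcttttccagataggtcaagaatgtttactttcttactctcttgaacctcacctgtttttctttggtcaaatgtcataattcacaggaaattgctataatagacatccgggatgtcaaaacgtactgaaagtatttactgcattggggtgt
All 9 members had a promoter in the RefSeq table. The C/EBP-like pattern occurred in 4 of 9, namely S100a9, Ltf, Ngp and Retnlg, and in 9.56% of 32851 promoters of the same length. The ETS-like pattern occurred in 5 of 9, namely S100a8, Elane, Mpo, Ltf and Csf3r, and in 23.3% of those promoters. Ltf held one of each, with the C/EBP-like match starting 75 bases and the ETS-like match 157 bases before the start. S100a8 held the ETS-like pattern at 170 and 36 bases before the start. S100a9 and Retnlg held the C/EBP-like pattern at 236 and 246 bases before theirs. A match describes these letters only.

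Of the 9 measured members, Retnlg rose in TGFb1-Tg lungs, S100a9, Ltf and Csf3r fell, and the other 5 did not pass the test, when each lung was set against the pool on its array. A gene is called here at an adjusted p under 0.05 from limma, two-sided, over 25647 genes. Thus 4 of 9 members were called, where 38.8% of all genes tested were. In the higher direction 1 member was called against a background of 19%, and in the lower direction 3 members against 19.8%. The median difference of the members was -0.69 on the log2 scale, and that of all genes tested was 0. These shares are close to the background, so the count says little about the members as a group. After quantile normalization of the ratios limma called none of the 9, with 0 at an unadjusted p under 0.05 and 2713 calls over all genes.

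The lung channel alone, with the pool set aside and each array centred on its median, gave another set of calls. It called 3 of 9 members, where 48.3% of all genes were called: Retnlg was higher (background 35.1%) and Ltf and Mpo were lower (background 13.2%). S100a9 and Csf3r, which fell relative to the pool, were not called there. The members' median was -0.19, against 0.12 over all genes. Of all calls, 49.0% were higher in TGFb1-Tg lungs in the ratio and 72.6% in the centred lung channel, and the share was 60.9% after quantile normalization of the lung channel and 41.1% without centring. Ltf and Retnlg were thus the members called by both measures, each in one direction.

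**Figure D1:**
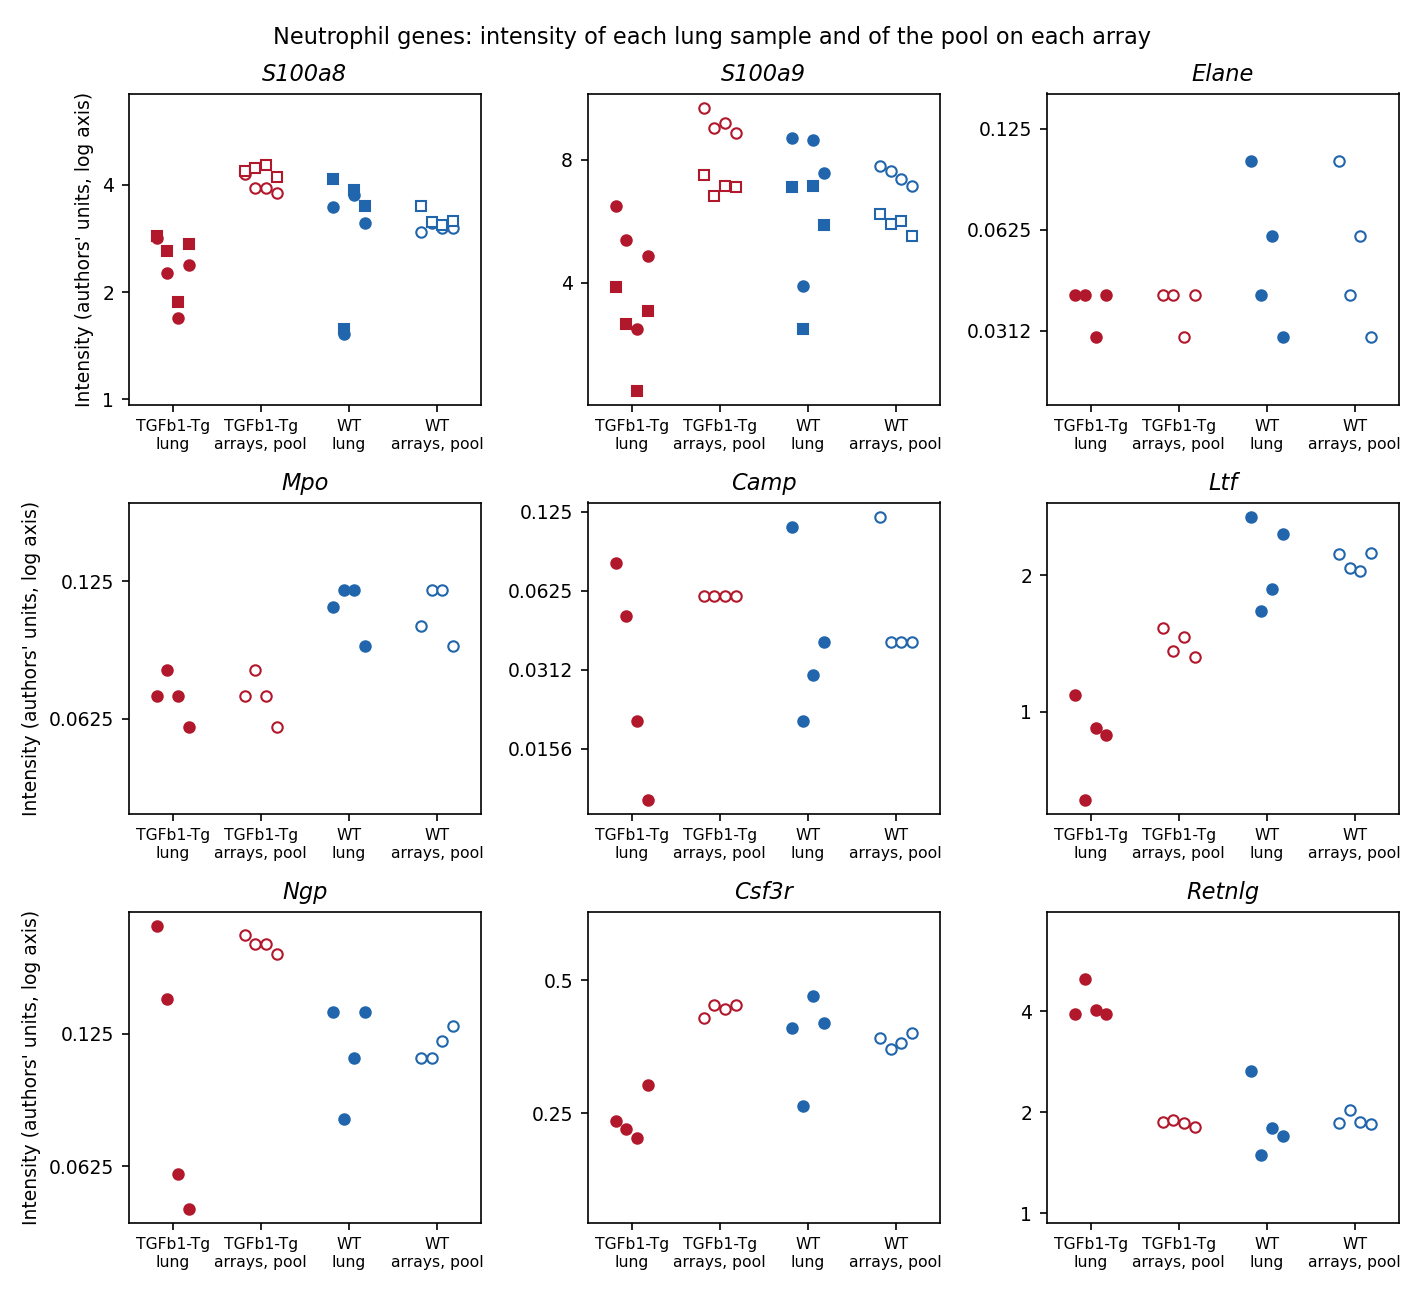
Intensity in the authors' units (log axis) of the 9 measured members, with filled marks for lungs and open marks for the pool on the same arrays, red for TGFb1-Tg arrays and blue for WT arrays; squares are the second probe of S100a8 and S100a9, and each panel has its own scale. Retnlg lies at 3.92 to 4.99 in TGFb1-Tg lungs and at 1.49 to 2.65 in WT lungs, and the pool of S100a9 lies higher on TGFb1-Tg arrays than on WT arrays.

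S100a8 and S100a9 encode the subunits of calprotectin, a calcium- and zinc-binding protein of the neutrophil cytosol. On the S100a9 probe MMT00080165 the lung intensities were 6.17, 5.09, 3.08 and 4.65 in TGFb1-Tg lungs, against 9.01, 3.93, 8.95 and 7.4 in WT lungs. On the S100a9 probe NM_009114 they were 3.9, 3.18, 2.18 and 3.42 in TGFb1-Tg lungs, against 6.84, 3.09, 6.9 and 5.54 in WT lungs. All TGFb1-Tg lungs lay below WT replicates 1, 3 and 4 on both probes, whereas WT replicate 2 lay among them. The pool read 10.71, 9.55, 9.82 and 9.3 on the TGFb1-Tg arrays for MMT00080165, against 7.73, 7.5, 7.17 and 6.89 on the WT arrays. The pool was therefore brighter on every TGFb1-Tg array than on any WT array.

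Relative to the pool, S100a9 averaged -1.12 ± 0.37 in TGFb1-Tg lungs and -0.069 ± 0.55 in WT lungs on the log2 scale (SD, n = 4 each). The difference was -1.05 ± 0.31 (SE), 2.08-fold lower in TGFb1-Tg lungs, with an adjusted p of 0.0338 in limma. The groups overlapped through WT replicate 2, whose ratio was -0.89. The call was lost on leaving out any array other than WT replicate 2, with adjusted p between 0.0531 and 0.0896. Without the pool the difference was -0.40 ± 0.27 (SE, n = 4 each), with an adjusted p of 0.249 in limma, and without WT replicate 2 it was -0.69, with an adjusted p of 0.0172.

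S100a8 had the same lowest array in each group as S100a9, with more overlap. On the probe MMT00078706 its lung intensities were 2.84, 2.26, 1.69 and 2.39 in TGFb1-Tg lungs, against 3.47, 1.53, 3.76 and 3.13 in WT lungs. On the probe NM_013650 they were 2.88, 2.61, 1.88 and 2.73 in TGFb1-Tg lungs, against 4.16, 1.58, 3.87 and 3.5 in WT lungs. TGFb1-Tg replicate 3 and WT replicate 2 were the lowest of their groups on both probes, and WT replicate 2 lay below every TGFb1-Tg lung. The log2 ratio averaged -0.82 ± 0.30 in TGFb1-Tg lungs and -0.088 ± 0.62 in WT lungs (SD, n = 4 each). The difference of -0.73 ± 0.32 (SE) did not pass the test, with an adjusted p of 0.127 in limma. Without WT replicate 2 it was -1.04, with an adjusted p of 0.00521. The lung channel alone gave -0.022 ± 0.28 (SE, n = 4 each), with an adjusted p of 0.956 in limma. The log2 ratios of S100a8 and S100a9 differed by -0.12 to 0.42 over the 8 arrays, with a root mean square of 0.23.

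Elane and Mpo encode neutrophil elastase and myeloperoxidase, the enzymes of the primary granules. Elane read 0.04, 0.04, 0.03 and 0.04 in TGFb1-Tg lungs, against 0.1, 0.04, 0.06 and 0.03 in WT lungs, and the pool channel gave the same 2-decimal value as the lung on every array. The pool on the WT arrays, which is one RNA, thus read from 0.03 to 0.1. Every log2 ratio of Elane was 0, and the authors' deposited p-value was not under 0.01 on any array. Mpo read 0.07, 0.08, 0.07 and 0.06 in TGFb1-Tg lungs, against 0.11, 0.12, 0.12 and 0.09 in WT lungs, again with the pool at or within 0.01 of the lung. These values did not overlap between groups, but they did once each array was centred on its median. The mean over all 8 arrays was under 0.1, and a step of 0.01 is a large part of such values. The Mpo ratio differed by -0.034 ± 0.034 (SE, n = 4 each), with an adjusted p of 0.454 in limma. Without the pool Mpo was lower by a log2 difference of -0.36 ± 0.12 (SE, n = 4 each), with an adjusted p of 0.0353 in limma, and the pool of the TGFb1-Tg arrays was lower than that of the WT arrays by a similar -0.38. Leaving out one array gave Mpo adjusted p values of 0.0195 to 0.0888 without the pool, and the call was kept on leaving out TGFb1-Tg replicate 2 or WT replicate 4 and lost on leaving out any other.

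Ltf, Camp and Ngp belong to the secondary granules: lactoferrin binds iron, cathelicidin is an antimicrobial peptide precursor, and neutrophilic granule protein is a cystatin-like protein of mice. Ltf had lung intensities of 1.09, 0.64, 0.92 and 0.89 in TGFb1-Tg lungs, against 2.69, 1.67, 1.86 and 2.46 in WT lungs. The groups did not overlap, and the lowest WT lung was above the highest TGFb1-Tg lung. The pool read 1.53, 1.36, 1.46 and 1.32 on the TGFb1-Tg arrays, against 2.23, 2.07, 2.04 and 2.24 on the WT arrays. For Ltf, unlike S100a9, the pool was thus dimmer on the TGFb1-Tg arrays.

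The log2 ratio of Ltf averaged -0.70 ± 0.27 in TGFb1-Tg lungs and -0.0093 ± 0.26 in WT lungs (SD, n = 4 each). The difference was -0.69 ± 0.17 (SE), 1.62-fold lower in TGFb1-Tg lungs, with an adjusted p of 0.0178 in limma. Without WT replicate 4 the difference was -0.65, with an adjusted p of 0.0530. For the lung channel alone it was -1.01 ± 0.21 (SE, n = 4 each), 2.01-fold lower, with an adjusted p of 0.00366 in limma. Lactoferrin is also made by gland and airway epithelium, so its transcript is not a marker of neutrophils alone.

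Camp and Ngp varied most among the TGFb1-Tg lungs. Ngp read 0.22, 0.15, 0.06 and 0.05 in TGFb1-Tg lungs, against 0.14, 0.08, 0.11 and 0.14 in WT lungs. TGFb1-Tg replicate 1 was the highest of all 8 lungs and TGFb1-Tg replicate 4 the lowest. The pool of those arrays read 0.19 to 0.21, so the spread lay in the lung channel: its log2 SD was 1.03 over the TGFb1-Tg lungs and 0.06 over the pool readings beside them. The ratio difference of Ngp was -0.97 ± 0.49 (SE, n = 4 each), with an adjusted p of 0.173 in limma. Camp read 0.08, 0.05, 0.02 and 0.01 in TGFb1-Tg lungs, against 0.11, 0.02, 0.03 and 0.04 in WT lungs. It ran in the same order as Ngp over the TGFb1-Tg lungs, at intensities where a step of 0.01 is a large part of the value. Its ratio difference was -0.62 ± 0.66 (SE, n = 4 each), with an adjusted p of 0.494 in limma.

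Csf3r encodes the receptor for granulocyte colony-stimulating factor on the neutrophil surface. Its lung intensities were 0.24, 0.23, 0.22 and 0.29 in TGFb1-Tg lungs, against 0.39, 0.26, 0.46 and 0.4 in WT lungs. The lungs overlapped through WT replicate 2, while the ratios did not overlap, at -0.97 to -0.60 in TGFb1-Tg lungs and -0.43 to 0.35 in WT lungs. The pool read 0.41, 0.44, 0.43 and 0.44 on the TGFb1-Tg arrays, against 0.37, 0.35, 0.36 and 0.38 on the WT arrays. The ratio difference was -0.84 ± 0.17 (SE, n = 4 each), 1.79-fold lower in TGFb1-Tg lungs, with an adjusted p of 0.00731 in limma. It was called on leaving out any one array. The authors' deposited p-value was under 0.01 on 4 of the TGFb1-Tg arrays and 1 of the WT arrays. Without the pool the difference was -0.31 ± 0.17 (SE, n = 4 each), with an adjusted p of 0.162 in limma, and without WT replicate 2 it was -0.50, with an adjusted p of 0.00903.

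**Figure D2:**
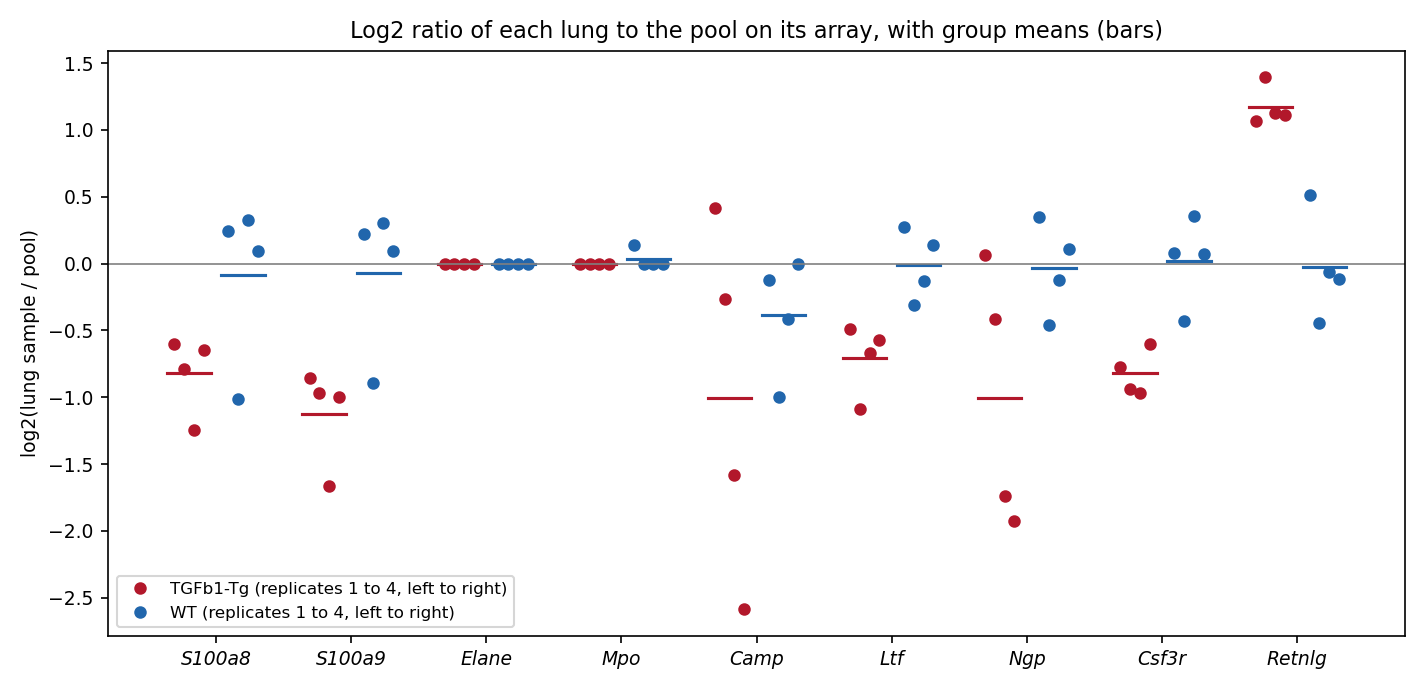
Log2 ratio of each lung to the pool on its array (y axis) for the 9 measured members, with red points for TGFb1-Tg lungs, blue points for WT lungs and bars for group means. Ratios of Ltf, Csf3r and Retnlg did not overlap between groups, and for S100a8 and S100a9 WT replicate 2, at -1.01 and -0.89, lies among the TGFb1-Tg points.

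Retnlg, a resistin-like gene of mice also called resistin-like gamma and abundant in circulating neutrophils, was the member that rose. Its probe, MMT00007494, read 3.92, 4.99, 4.05 and 3.92 in TGFb1-Tg lungs, against 2.65, 1.49, 1.79 and 1.7 in WT lungs. The groups did not overlap, and WT replicate 1 was the nearest to the TGFb1-Tg lungs. The pool read 1.81 to 1.9 on the TGFb1-Tg arrays and 1.84 to 2.03 on the WT arrays, so it was alike in both. The log2 ratio averaged 1.17 ± 0.15 in TGFb1-Tg lungs and -0.028 ± 0.40 in WT lungs (SD, n = 4 each). The difference was 1.20 ± 0.20 (SE), 2.30-fold higher, with an adjusted p of 0.00269 in limma. For the lung channel alone it was 1.46 ± 0.19 (SE, n = 4 each), 2.75-fold higher, with an adjusted p of 0.000293 in limma.

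Ratios did not overlap between groups for 3 of 9 members, Ltf, Csf3r and Retnlg, where 37.2% of genes complete on all arrays had none. In the centred lung channel Ltf and Retnlg were the 2 members without overlap, where 45.1% of genes had none.

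Other resistin genes were set beside Retnlg, and were chosen after their values were seen. Retnla, known as Fizz1 and made by lung epithelium and alternatively activated macrophages, read 19.57, 21.98, 21.83 and 23.36 in TGFb1-Tg lungs, against 16.45, 7.27, 7.64 and 9.78 in WT lungs. Its ratio difference was 1.32 ± 0.23 (SE, n = 4 each), with an adjusted p of 0.00363 in limma. The highest lung intensity of any probe was 23.49 to 24.39 on the TGFb1-Tg arrays, so Retnla lay near the top there. Whether this compressed its difference was not tested. The log2 ratios of Retnlg and Retnla differed by -0.18 to 0.22 over the 8 arrays, with a root mean square of 0.12. Of 25302 genes complete on all arrays, Retnla had the ratios nearest to those of Retnlg, before Adora2b at 0.13 and Muc4 at 0.15, a ranking also made after values were seen. Binding of Retnla RNA by the Retnlg probe, whose sequence was not used here, was not tested. Retn, the resistin gene of fat cells, read 0.18, 0.18, 0.2 and 0.24 in TGFb1-Tg lungs, against 1.2, 0.68, 0.63 and 0.77 in WT lungs. It fell, with a ratio difference of -1.54 ± 0.21 (SE, n = 4 each) and an adjusted p of 0.00117 in limma. Retnlb was dim, with mean intensities under 0.1, and its difference of 0.29 had an adjusted p of 0.172 in limma.

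**Figure D3:**
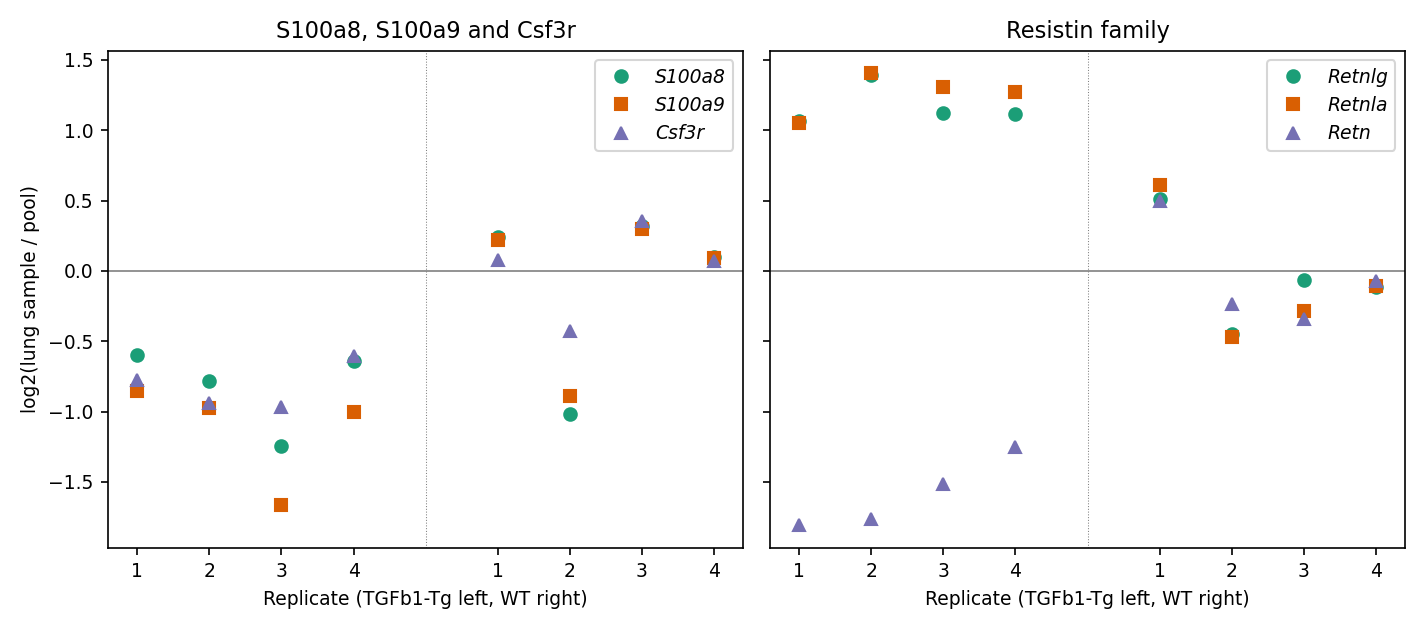
Log2 ratio of lung to pool (y axis) on each array (x axis, TGFb1-Tg replicates left and WT replicates right) for S100a8, S100a9 and Csf3r in the left panel and for Retnlg, Retnla and Retn in the right panel. Retnlg and Retnla lie within 0.22 of each other on every array, and Retn lies below 0 on all TGFb1-Tg arrays, at -1.81 to -1.25.

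The differences of S100a8, S100a9 and Csf3r were smaller without the pool. With each array centred, the pool of the TGFb1-Tg arrays read above that of the WT arrays by 0.66 for S100a8, 0.60 for S100a9 and 0.47 for Csf3r on the log2 scale, and by 1.00 for Ngp. It read below it by -0.37 for Ltf, and differed by 0.20 for Retnlg. The median over all genes was 0.14. Within an array set the pool readings of S100a9 had a log2 SD of 0.08 on TGFb1-Tg arrays and 0.11 on WT arrays, where the lungs had 0.35 and 0.57. The pools of the array sets thus differed for these genes by more than repeated readings of a pool did. The lungs behind each pool, on which the sources differ, and the array set cannot be told apart here.

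Centring of the lung channel left the median of all genes at 0.12 above 0. Relative to that median, the lung channel differences were -1.12 for Ltf, -0.52 for S100a9, -0.48 for Mpo, -0.43 for Csf3r, -0.14 for S100a8 and 1.34 for Retnlg. Ngp lay at -0.029 on this scale, and had no settled direction. After quantile normalization of the lung channel, where the median of all genes was 0.031, the differences relative to it were -1.47 for Ltf, -0.90 for S100a9, -0.55 for Csf3r, -0.52 for S100a8, -0.27 for Mpo and 0.97 for Retnlg. Ltf and Retnlg were called under each of these scalings of the lung channel, whereas S100a9 had an adjusted p of 0.0509 in limma after quantile normalization and Mpo of 0.146.

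**Figure D4:**
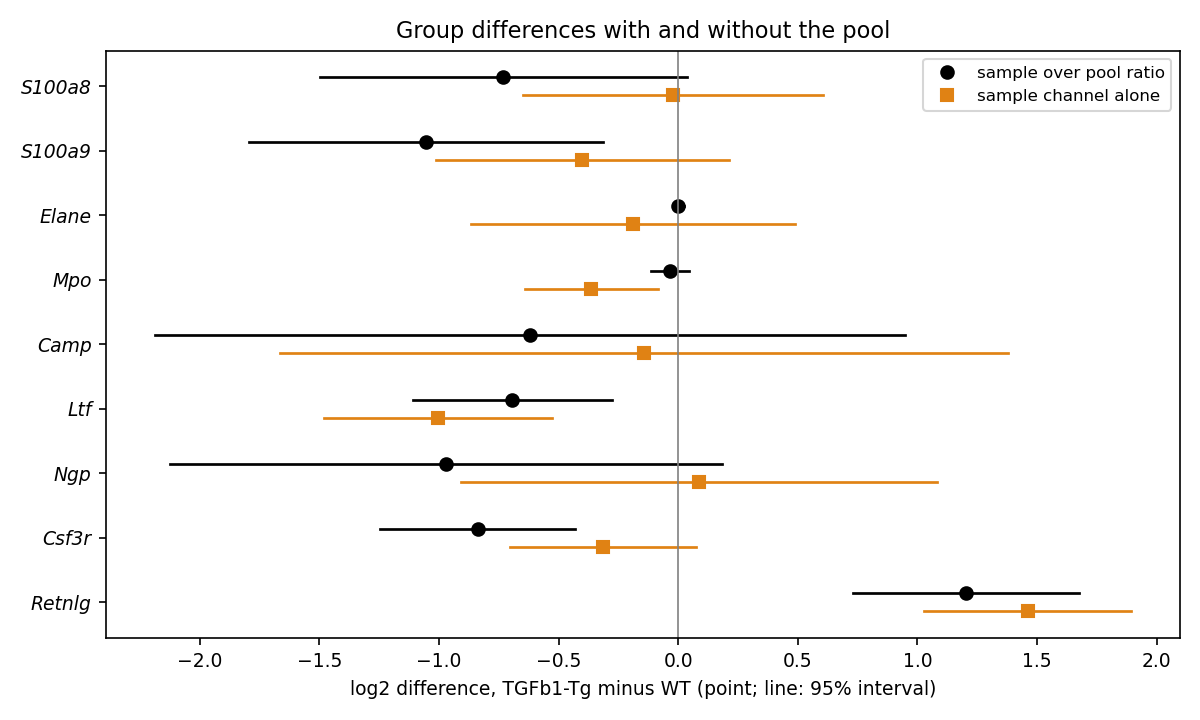
Log2 difference, TGFb1-Tg minus WT (x axis), with its 95% interval from limma for each measured member (y axis), from the ratio to the pool (black circles) and from the centred lung channel alone (orange squares). Retnlg lies above 0 and Ltf below 0 by both measures, whereas the intervals of S100a9 and Csf3r include 0 in the lung channel alone.

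WT replicate 2 had the lowest WT ratio for S100a8, S100a9, Camp, Ltf, Ngp, Csf3r and Retnlg. Among TGFb1-Tg lungs, replicate 3 was the lowest for S100a8, S100a9 and Csf3r, and replicate 4 for Camp and Ngp. All genes complete on the 8 arrays were then ranked by how near their log2 ratios lay to the mean of S100a8 and S100a9. The measure was the root mean square difference, in which the group difference counts beside the order of the arrays. Csf3r ranked 16 of 25303 at 0.27, Ltf 188 at 0.42, Ngp 1585 at 0.57 and Retnlg 24929 at 1.55. Mpo ranked 10762 at 0.80, Elane 11132 at 0.80 and Camp 14396 at 0.83. The 5 nearest of 25294 genes outside the members were Cr2, H2-Q10, Cd79a, Bank1 and Cd79b. Cr2, Cd79a, Bank1 and Cd79b are genes of B lymphocytes, encoding complement receptor 2, parts of the B cell receptor and a scaffold of its signalling, and H2-Q10 encodes a class I-like molecule.

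The rule chose these genes by their ratios, so their ratio differences are a description: -0.86 for Cr2, -0.85 for H2-Q10, -1.08 for Cd79a, -0.85 for Bank1 and -0.75 for Cd79b. Without the pool they were -0.041 for Cr2, -0.31 for H2-Q10, -0.20 for Cd79a, -0.15 for Bank1 and 0.12 for Cd79b, and none was called, with adjusted p between 0.234 and 0.895. The part of B cells in these values was not tested.

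Other genes of neutrophils were split in direction. Over all genes tested, 19% were called higher and 19.8% lower relative to the pool. In the lung channel alone these shares were 35.1% and 13.2%. Quantile normalization of the ratios called 1443 genes higher and 1270 lower. The counts of this and the following lists were not tested against the shares, and counts near them say little about a list. Of 18 measured other granule and secreted genes, 7 rose and 4 fell relative to the pool, with a median difference of 0.048, and in the lung channel alone 7 rose and 8 fell, with a median of -0.090. Wfdc21, an antimicrobial whey acidic protein, differed by 2.11 ± 0.15 and Lcn2, the iron-siderophore binding lipocalin, by 1.82 ± 0.15 (SE, n = 4 each, adjusted p 6.81e-05 and 0.00013 in limma). Lcn2 is also made by injured epithelium. Mmp9, the gelatinase of the tertiary granules, fell, with a difference of -1.44 ± 0.19, and Hp, haptoglobin, fell, with a difference of -0.83 ± 0.09 (SE, n = 4 each, adjusted p 0.000968 and 0.000449 in limma). Chil1, a chitinase-like protein, was called at 0.29 relative to the pool and lay at 0.066 in the lung channel alone, where its sign turned after quantile normalization. Mmp8, the collagenase of secondary granules, chosen after its values were seen, rose, with a difference of 1.33 ± 0.18 and an adjusted p of 0.00107 in limma. The list held 2 higher and 1 lower call after quantile normalization of the ratios.

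Among 23 other surface, signalling and maturation genes, 11 rose and 6 fell relative to the pool, with a median of 0.12, and 10 rose and 2 fell in the lung channel alone, with a median of 0.21, which turned to -0.082 without centring. Clec4d, a C-type lectin of myeloid cells, had a difference of 1.58 ± 0.23 and Cxcr1, a chemokine receptor, of 1.39 ± 0.07. Fcgr3, an Fc receptor shared with macrophages and natural killer cells, had 1.16 ± 0.05 (SE, n = 4 each for all 3), and the adjusted p values were 0.00147 for Clec4d, 2.16e-05 for Cxcr1 and 1.28e-05 for Fcgr3 in limma. Cxcr1 was faint, with mean lung intensities of 0.1725 in TGFb1-Tg lungs and 0.0875 in WT lungs. G0s2 fell, with a difference of -0.96, and Cxcr4, the receptor that holds neutrophils in the marrow, fell, with a difference of -0.89. In the centred lung channel G0s2 lay at -0.41 (adjusted p 0.196) and Cxcr4 at -0.090 (0.522), whereas after quantile normalization of the lung channel both were called, at -0.83 (0.0196) and -0.56 (0.00388), as they were without centring. Relative to the pool 4 genes of the list were higher and 1 lower after quantile normalization of the ratios. Cxcr2, a chemokine receptor of mature neutrophils that the naming rule did not pick and that was chosen after its values were seen, differed by -0.28 ± 0.25 (SE, n = 4 each), with an adjusted p of 0.449 in limma. It read 0.52 in the lung channel alone, with an adjusted p of 0.0869.

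All 6 subunits of the NADPH oxidase, the enzyme behind the oxidative burst of neutrophils and macrophages, were measured. Of these 5 rose and none fell relative to the pool, with a median of 0.56, and 6 rose in the lung channel alone, while 1 was called after quantile normalization of the ratios. Cybb, the catalytic subunit, differed by 0.88 ± 0.08, Ncf1 by 0.62 ± 0.10 and Cyba by 0.57 ± 0.05 (SE, n = 4 each, adjusted p 0.000174, 0.00217 and 0.000172 in limma). Among 16 growth factors and chemoattractants, 10 rose and 2 fell, with a median of 0.34, and 11 rose and 3 fell in the lung channel alone. The list held 2 higher and no lower calls after quantile normalization of the ratios, where Il1b (adjusted p 0.482), Cxcl5 (0.0900) and Ppbp (0.188) were not called. Il6 had a difference of 2.66 ± 0.15 and Il1b of 1.08 ± 0.30 (SE, n = 4 each, adjusted p 2.86e-05 and 0.0251 in limma). Cxcl5 and Ppbp, ligands of the receptor Cxcr2, fell, with differences of -2.19 ± 0.29 and -1.82 ± 0.39 (SE, n = 4 each, adjusted p 0.000909 and 0.00897 in limma). Cxcl5 was faint, at mean lung intensities of 0.05 in TGFb1-Tg lungs and 0.1225 in WT lungs. Cxcl15, the lung-expressed chemokine lungkine, differed by -0.31 with an adjusted p of 0.316.

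Of 5 endothelial adhesion molecules, 3 fell relative to the pool and none rose, with a median of -0.48, whereas in the lung channel alone 1 rose and 1 fell, with a median of 0.021, and the list held 1 lower and no higher call after quantile normalization of the ratios. Sele, E-selectin, and Icam2 each differed by -0.74 (adjusted p 0.00985 and 2.98e-05 in limma). Sele was dim, with mean lung intensities of 0.03 in TGFb1-Tg lungs and 0.064 in WT lungs. It was not called after quantile normalization of the ratios (adjusted p 0.376 in limma). Icam1 lay at -0.14 relative to the pool, with an adjusted p of 0.305, and at 0.67 in the lung channel alone, with an adjusted p of 0.00593, so its sign depended on the measure. Of 6 measured receptors, partners and relatives of S100A8 and S100A9, 4 rose and 1 fell, with a median of 0.24. S100a4 and S100a10 are counted there as relatives. In the lung channel alone 4 rose and none fell. In limma after quantile normalization of the ratios none of the 6 was called, with 3 at an unadjusted p under 0.05. S100a4, a relative of the calprotectin genes, differed by 0.76, Cd14, an endotoxin co-receptor, by 0.53, and Cd36, a scavenger receptor, by -0.51. S100a10 differed by 0.20 with an adjusted p of 0.120, and its sign turned in the lung channel without centring. Of 5 measured protease inhibitors, 2 rose and 1 fell, with Serpinb6b at 0.64, Serpina3n at 0.50 and Serpinb1b at -0.94, while the list held 1 lower and no higher call after quantile normalization of the ratios.

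Markers of other leukocytes moved beside the members. Of 8 macrophage genes 6 rose and none fell relative to the pool, with a median of 0.83, and their summed lung intensity was 67.3 to 77.3 in TGFb1-Tg lungs and 31.6 to 37.6 in WT lungs. Gpnmb and Trem2, genes of activated tissue macrophages, differed by 2.18 and 2.09, and Lgals3 by 0.43. Lgals3 averaged 23.1 in TGFb1-Tg lungs, near the highest lung intensities on those arrays. Lgals3 and Spp1, the latter chosen after its values were seen, made most of the macrophage sums. Their mean lung intensities were 23.1 and 22.4 in TGFb1-Tg lungs and 14.9 and 7.18 in WT lungs. Spp1 differed by 0.88 relative to the pool and was not called, with an adjusted p of 0.0800 in limma. Of 10 general leukocyte genes 6 rose and none fell, with a median of 0.39, and their sum was 55.2 to 62.3 in TGFb1-Tg lungs and 31.9 to 40.6 in WT lungs. Tyrobp and Fcer1g, signalling adaptors of myeloid cells, differed by 0.87 and 0.74, and Cd52 by 0.28 with an adjusted p of 0.0550 in limma. Of 8 measured monocyte markers 7 rose and 1, F13a1 at -0.36, fell, with a median of 0.44 and sums of 46.7 to 52.4 in TGFb1-Tg lungs and 38.7 to 42.5 in WT lungs. Fn1, listed there, is also a matrix gene, and differed by 0.81. Fn1 and Ly6c1, the latter chosen after its values were seen, made most of the monocyte sums. Their mean lung intensities were 20.2 and 18.2 in TGFb1-Tg lungs and 19.4 and 14.2 in WT lungs. After quantile normalization of the ratios 3 macrophage genes, 1 general leukocyte gene and 2 monocyte markers were higher at an adjusted p under 0.05, and none was lower. In these 3 lists Vcan alone, a monocyte marker chosen after its values were seen, had mean intensities under 0.1. Its lung means were 0.1425 in TGFb1-Tg lungs and 0.0825 in WT lungs. Its pool means were 0.07375 on TGFb1-Tg arrays and 0.08375 on WT arrays. Summed over the 9 members, the lung intensity was 9.79 to 13.6 in TGFb1-Tg lungs and 8.75 to 17.9 in WT lungs. Retnlg, S100a9 and S100a8 made most of that sum. Their mean lung intensities were 4.22, 3.96 and 2.41 in TGFb1-Tg lungs and 1.91, 6.46 and 3.125 in WT lungs. The higher Retnlg and the lower S100a9 and S100a8 thus offset each other in the sum. The part of these cells in the values of the members was not tested.

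Of 7 measured erythroid and platelet markers none rose and 3 fell relative to the pool, with a median of 0.39, and their sum was 3.64 to 13.4 in TGFb1-Tg lungs and 4.41 to 7.07 in WT lungs. The 3 that fell were the platelet genes Gp9 at -1.10, Itga2b at -0.61 and Pf4 at -0.59, and Pf4 lay at 0.16 in the lung channel alone, where 1 marker of the list fell. In limma after quantile normalization of the ratios none of the 7 was called, with 0 at an unadjusted p under 0.05. Of 9 measured eosinophil, basophil and mast cell markers none rose and 3 fell, with a median of -0.11 and sums of 27.8 to 37.0 in TGFb1-Tg lungs and 24.5 to 29.8 in WT lungs. Ear1, chosen after its values were seen, and Ear2 made most of those sums, at means of 12.5 and 14.3 in TGFb1-Tg lungs. Fcer1a, which was dim, differed by -1.01 and Cpa3, a mast cell protease, by -0.87. Cpa3 was faint too, at mean lung intensities of 0.0625 in TGFb1-Tg lungs and 0.1325 in WT lungs. In the lung channel alone 2 rose and 3 fell, and after quantile normalization of the ratios 1 was lower and none higher. Ear2 differed by -0.034 relative to the pool and by 0.54 in the lung channel alone, where it was called with an adjusted p of 0.00399 in limma. The part of these cells in the values of the members was not tested either.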

How the data were processed

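Per the labels' protocols, lung RNA was extracted with Trizol and 100 ng was amplified before labelling for 2-colour Agilent arrays, with the lung in Cy5 and the pool in Cy3. Arrays were read with Agilent Feature Extraction 8.5.1.1 per the submitters' processing notes, and its treatment of background and dyes, like the slides and scan runs, is not stated in the sources used here. The deposited table holds an intensity of each channel, scaled by the authors and mostly written to 2 decimals, and a p-value per probe and array from the authors, used only as a count of arrays under 0.01. The deposited value table holds log10 ratios, which matched log10 of lung over pool within 0.002 for 99.9898% to 100% of probes per array, and their median was 0 on every array.

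Log2 of the lung over the pool intensity, computed from the deposited intensities, was averaged over a gene's probes and tested in R 4.3.3 with limma 3.58.1 (lmFit, eBayes), requiring at least 2 values per group, two-sided and Benjamini-Hochberg adjusted over 25647 genes. A mean intensity under 0.1 is called dim. Il6, Cxcr1, Cxcl5, Serpinb1b, Gp9, Vcan and Cpa3 also had a mean lung intensity under 0.1 in a group, where steps of 0.01 weigh. Probes were named with the RefSeq gene table of GRCm38.p6: 6974 by accession, 16550 by current symbol, 2555 by synonym and 3984 by the symbol of the file, while 9278 had no gene. Precision is limited by the number of arrays: over all genes the median standard error was 0.0555 (log2). Python 3.11.15, pandas 2.3.3 and matplotlib 3.10.9 were used for tables and figures. The fit was tested on simulated data.

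The members and the 12 other lists were chosen with earlier results of these data known. The text names all members, from each other list the 2 called genes with the largest rise, the 2 with the largest fall and the gene with the highest lung intensity, and the 5 genes nearest to S100a8 and S100a9, with Tgfb1 and lung markers as checks, and any other gene is marked as chosen after its values were seen. Alternatives were the lung channel alone, quantile normalization, offsets of 0.05 and 0.01, a filter on dim genes, the deposited log ratio, single probes, a trended prior, the replicate number as a block and each array left out. Further scalings of the lung channel were added after seeing the data. The design was written for the single pool of the labels and was kept.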

Additional observations from a re-analysis of the deposited data

Results flagged for a closer look

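In 108 groups of 4 arrays, 1 array was set against the range of the other 3 with Dixon's criterion. Its 95% critical value was used, which chance passes in about 5% of groups. All groups that passed are named below, and they are more than that share. Some passed through rounded ratios or are of genes chosen by these ratios, so the excess over chance was not measured. Among the members, WT replicate 2 stood apart for S100a8 at a log2 ratio of -1.01, with the others from 0.10 to 0.32. WT replicate 1 stood apart for Mpo at 0.14, with the others at 0, but this is a lung intensity of 0.11 over a pool of 0.1, one rounding step apart, so the criterion says nothing there. TGFb1-Tg replicate 2 stood apart for Retnlg at 1.39, with the others from 1.07 to 1.12.

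WT replicate 2 was below the other WT arrays for Cr2 at -0.68, Cd79a at -0.72 and Bank1 at -0.63. These genes and Cd79b were chosen because their ratios lay near those of S100a8 and S100a9 on the same arrays. For them a low WT replicate 2 or TGFb1-Tg replicate 3 follows from that choice and is not a separate observation. TGFb1-Tg replicate 3 was below its group for Cd79a at -1.53, Cd79b at -1.09, Cd14 at 0.21 and Serpinb1b at -1.0. TGFb1-Tg replicate 4 was above its group for Ppbp at -0.95, Gp9 at -0.46 and Cpa3 at -0.78. For Ppbp and Gp9, both platelet genes, the others lay at -2.27 to -2.16 and at -1.38 to -1.22. TGFb1-Tg replicate 2 was above its group for Ncf1 at 0.92, and TGFb1-Tg replicate 1 below it for Lgals3 at 0.18. WT replicate 3 stood apart for G0s2 at -0.58, Cxcr4 at 0.15, Fcer1a at 0.58 and Gpnmb at 0.19, and WT replicate 4 for Serpinb1b at 0.12. The others lay at 0 for Fcer1a and for Serpinb1b in WT lungs, so the criterion was likewise passed by rounded ratios there. In TGFb1-Tg lungs the others lay at -0.87 for Cpa3 and at -0.89 to -0.87 for Serpinb1b. Both genes averaged 0.0625 in those lungs, so rounding bears on them too. What sets these arrays apart was not tested.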

How the results depend on the processing

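Quantile normalization of the ratios, which gives all arrays one spread although TGFb1-Tg arrays were wider, called 2713 genes against 9956 and 0 of 9 members in limma, where 0 also had an unadjusted p under 0.05. The calls of S100a9 at -0.80 (adjusted p 0.352), Ltf at -0.47 (0.402), Csf3r at -0.62 (0.328) and Retnlg at 0.81 (0.246) were lost there with their direction kept. In the lung channel alone S100a9 at -0.40 and Csf3r at -0.31 lost their calls, Mpo gained one at -0.36, and Ngp turned to 0.087. S100a9 also lost its call on the probe MMT00080165 alone, at -1.02 (0.0544).

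With the replicate number as a block S100a9 stayed at -1.05 with an adjusted p of 0.0922, and no other member changed its call. Deviations of same-numbered samples correlated at -0.04 to 0.04, and those of differently numbered samples at -0.20 to 0.18. No pairing by number was seen, but such correlations cannot show that a weak one is absent.

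Leaving out one array gave differences of -1.04 to -0.59 for S100a8, -1.33 to -0.87 for S100a9, -0.79 to -0.57 for Ltf, -0.99 to -0.73 for Csf3r, 1.06 to 1.38 for Retnlg, -1.33 to -0.66 for Ngp, -1.09 to -0.093 for Camp and -0.046 to 0 for Mpo. It called 8774 to 9391 genes and 2 to 5 members, with 2 members without WT replicate 4. S100a8 was called when WT replicate 2 was left out and not otherwise. For the lung channel alone, leaving out one array gave -0.34 to 0.11 for S100a8 (above 0 at 0.097, 0.11, 0.060 and 0.080 without TGFb1-Tg replicate 3 and WT replicates 1, 3 and 4), -0.41 to 0.14 for Elane, -0.60 to 0.40 for Camp (above 0 at 0.032, 0.40 and 0.35 without TGFb1-Tg replicates 3 and 4 and WT replicate 1) and -0.28 to 0.44 for Ngp (below 0 at -0.28, -0.13 and -0.10 without TGFb1-Tg replicates 1 and 2 and WT replicate 2). No adjusted p was under 0.05 for these 4 genes there. S100a9 and Csf3r were called there without WT replicate 2 (0.0172 and 0.00903), and the adjusted p of Mpo ranged from 0.0195 to 0.0888. Quantile normalization of the lung channel turned Elane to 0.070 and Camp to 0.17, and dropping the centring turned Ngp to -0.20 and called Csf3r at -0.60 (0.0239). Offsets, the dim filter, the deposited ratio and the trended prior changed no member's call, and the dim filter removed Elane, Camp and Mpo. These 3, under 0.1 in mean intensity over the arrays, are limited by steps of 0.01.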
